A study of Mus musculus with 16 samples.

Results

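The mouse kidney cortex after 2 weeks of treadmill running was compared with the cortex of sedentary mice by sequencing of polyadenylated RNA. The comparison used 8 of the 16 libraries of the series, 4 from mice that ran for 2 weeks (2 wk) and 4 from sedentary mice, which were chosen by their labels alone. Of the 55414 genes in the deposited table, 16126 had enough counts to be tested. All mice were wild-type C57BL/6J males, an inbred laboratory strain with no engineered allele named in the labels. Runners were made to run in bouts of 40 minutes at 70% of their capacity, and the other 8 libraries came from mice that ran over 1 day (24 h) or 1 week (1 wk). The labels give neither ages nor the interval between the final bout and the removal of the kidney, and they do not state that each library came from its own mouse. The p-values therefore reflect only variation among these libraries, some of which may be technical. The sample titles carry the letter G for sedentary and F for all runners. Neither letter is explained, and what they mark cannot be told apart from running.

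The cortex holds the filtering glomeruli, the proximal tubule that takes back most of the filtrate, and the distal nephron, where the final amounts of salt, acid and calcium in urine are set. In the distal convoluted tubule sodium enters through the thiazide-sensitive cotransporter, and further on, in principal cells, through the epithelial sodium channel, which aldosterone governs. Intercalated cells, scattered among the principal cells, secrete acid or base with a vacuolar proton pump. Physical training is of interest here because the study asked how exercise shifts the coupling of blood pressure to salt and water excretion, and what renal immune cells do meanwhile.

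Totals ran from 43601621 to 66852397 counts per library, and mitochondrial transcripts took 3.74% ± 0.54 of the counts at 2 wk (SD, n = 4) and 3.91% ± 0.41 in sedentary mice. Proximal tubule markers summed to 68020 to 84960 CPM (each gene's count scaled to library size and composition, the latter by TMM) at 2 wk and 74380 to 82850 CPM in sedentary libraries, and Cyp11b1 and Cyp11b2, which define the adrenal cortex, were at 0. The runners' libraries were the more uneven. Against the sedentary mean, the mean log2 level of the 10 inner medulla markers was -0.97, -0.48, 0.15 and -0.13 in 2 wk libraries 1 to 4, and no further than 0.0451 from it in any sedentary library. The 8 urothelium markers stood at -3.01, -1.91, -0.31 and -1.11 on that scale, with sums of 1.07 to 7.33 CPM at 2 wk and 6.83 to 16.02 CPM in sedentary libraries. Upk2, a uroplakin of that lining, was at 0.0242 to 0.444 CPM at 2 wk and 0.334 to 1.94 CPM in sedentary libraries, whereas the keratin Krt7 from the medulla list was higher at 2 wk (126 ± 26.0 CPM against 90.5 ± 10.2 CPM, with overlap). The 4 fat markers tested of 10 stood at 2.06, -0.92, -0.29 and 0.55 in 2 wk libraries 1 to 4 and between -0.23 and 0.15 in sedentary libraries, with sums of 18.8 to 66.2 CPM and 33.5 to 47.2 CPM. Cfd, a fat cell protease, reached 13.9 CPM in 2 wk library 1 against 0.0593 to 0.704 CPM in the other 3 at 2 wk. Adipoq, the fat hormone adiponectin, had too few counts to be tested, 113 over the 4 runner libraries and 11 over the 4 sedentary ones. The other untested fat markers were Cidea (160 against 7 counts), Ucp1 (122 against 5), Retn (52 against 5), Plin1 (43 against 12) and Lep (9 against 5). The part of these cell types in the results was not tested.

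No gene passed an adjusted p of 0.05 between 2 wk and sedentary cortex by edgeR's quasi-likelihood test with Benjamini-Hochberg adjustment (0 of 16126, 0%). The smallest adjusted p was 0.0591, reached by Foxi1, Scd2 and Ints6. At an unadjusted p under 0.05 stood 1170 genes, 648 higher (4.02% of those tested) and 522 lower (3.24%) at 2 wk, which are the backgrounds for the gene groups below. The 4 libraries of one group lay wholly above or below the 4 of the other, with no overlap, for 370 genes higher (2.29%) and 421 genes lower (2.61%) at 2 wk. DESeq2 called 34 genes in either direction. Voom with quality weights called 6, which were Foxi1, Scd2, Ints6, Acnat2, Phactr1 and Scnn1g and were higher at 2 wk. The median log2 fold change over all genes was 0.01, with a median standard error of 0.144. Words such as higher and lower below describe measured levels that missed the adjusted threshold in edgeR.

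**Figure D1:**
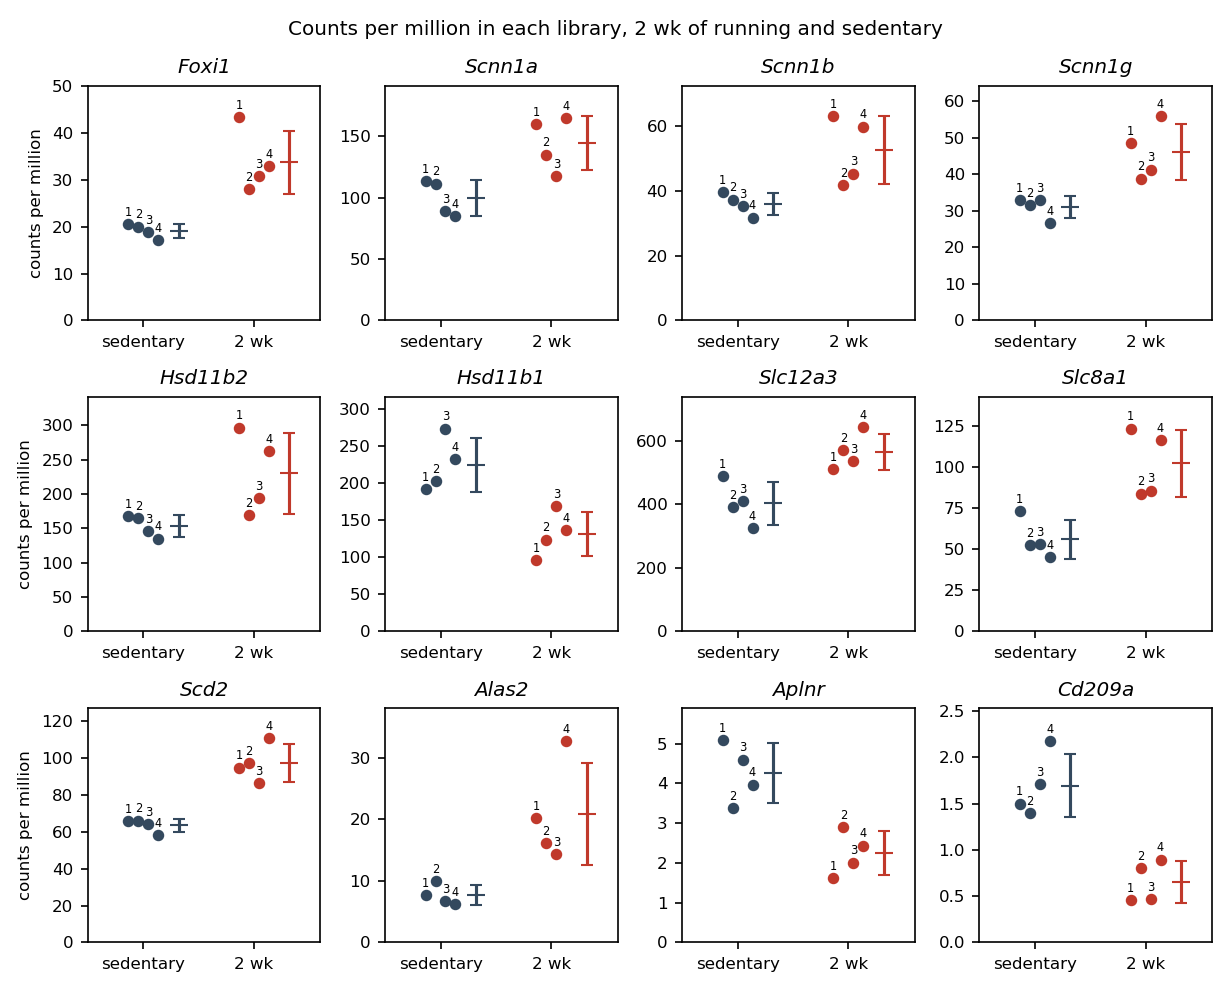
CPM (y axes, from 0) of 12 genes in each of the 4 sedentary (dark) and 4 runner (2 wk, red) libraries, numbered by replicate, with the mean and SD beside them. The 4 libraries of each group are separated in all 12 panels, and runner libraries 1 and 4 are the highest for Scnn1a, Scnn1b, Scnn1g, Hsd11b2 and Slc8a1.

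Foxi1, the forkhead transcription factor that intercalated cells need for their identity, had the smallest p of all genes and lies on chromosome 11 (34204338 to 34208089, minus strand, GRCm38). It stood at 43.4, 28.0, 30.8 and 33.0 CPM in the 2 wk libraries and at 20.5, 20.02, 18.9 and 17.2 CPM in the sedentary ones. Every runner library lay above every sedentary one, with library 1 the highest. The difference was 0.82 ± 0.14 on the log2 scale (SE), a 1.76-fold higher level, with an adjusted p of 0.0591 by edgeR, 7.17e-05 by DESeq2 and 0.00758 by voom. Without 2 wk library 2 or without 2 wk library 3 edgeR also called it (adjusted p of 0.0376 and 0.0367).

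Other intercalated cell genes lay on the same side. Of 12 markers tested, 11 were higher at 2 wk, 7 of them at an unadjusted p under 0.05 and none lower. The median was 0.39 on the log2 scale against 0.01 over all genes. Slc4a1, 1 of the 12, also belongs to the list of erythroid genes described further on. Atp6v1b1, a subunit of the proton pump particular to these cells, was at 101 ± 17.6 CPM against 76.5 ± 10.9 CPM. Slc26a4 encodes pendrin, the chloride and bicarbonate exchanger of base-secreting cells, and read 72.4, 64.8, 61.5 and 84.0 CPM in runners against 60.2, 60.5, 51.2 and 43.2 CPM. Its groups did not overlap, but the lowest runner and the highest sedentary library lay close together (log2 fold change 0.39 ± 0.14, adjusted p = 0.542). The ammonia channels Rhbg (0.45 ± 0.14) and Rhcg (0.39 ± 0.11), the alkali-sensing receptor Insrr (0.55 ± 0.18) and the pump subunit Atp6v0d2 (0.33 ± 0.13) were higher by similar amounts, with adjusted p-values of 0.374 to 0.594. Summed over the list, the markers came to 839.3 to 1030 CPM at 2 wk and 710.1 to 831.8 CPM in sedentary mice, so that the ranges did not meet. The count of 7 was 5 without 2 wk library 4 (median 0.31) and 5 without sedentary library 4 (median 0.30). Over all single libraries left out it ran from 5 to 10 and the median from 0.30 to 0.44. Without 2 wk libraries 1 and 2, whose medulla genes were lowest, the median was 0.40 and the count 8. That alternative was chosen after seeing the data. In a bulk sample more cells of a type and more RNA per cell cannot be told apart.

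Forkhead factors recognise the letters GTAAACA, which were therefore searched on both strands in the RefSeq promoters of these markers (GRCm38.p6, from 250 bases before to 50 after each start). Of the 12 markers 7 had an entry and 1, Atp6v1b1, held the letters, against 4.05% of all 27025 symbols with an entry. The match lies 98 bases before the start, within chr6:83742899-83742945 on the plus strand, and is shown because Atp6v1b1 is the pump gene described above. It reads as the reverse complement, in capitals. Among other markers with an entry, 2 of 9 for principal cells and 2 of 9 for the thick ascending limb held the same letters. Of 11 distal convoluted and connecting tubule markers 1 held them, and of 11 proximal tubule markers 0. A match of letters is a description, not a binding site.
Atp6v1b1: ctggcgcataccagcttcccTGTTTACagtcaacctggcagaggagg

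All 3 subunits of the epithelial sodium channel were higher in every runner library than in any sedentary one. Scnn1g, the gamma subunit (chromosome 7, 121734479 to 121768475, plus strand), read 48.5, 38.8, 41.3 and 55.9 CPM at 2 wk and 32.9, 31.6, 33.0 and 26.7 CPM in sedentary mice. Libraries 1 and 4 of the runners were the highest. The log2 fold change was 0.57 ± 0.12 with an adjusted p of 0.185 by edgeR, 0.00591 by DESeq2 and 0.022 by voom. Scnn1a, the alpha subunit that aldosterone induces in the kidney, read 159.8, 135.1, 117.5 and 165.1 CPM against 113.6, 111.4, 89.2 and 85.0 CPM (0.53 ± 0.12, adjusted p = 0.239 by edgeR and 0.0168 by DESeq2). Scnn1b, the beta subunit, was at 52.6 ± 10.5 CPM against 36.04 ± 3.36 CPM (0.54 ± 0.14, adjusted p = 0.357).

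The channel's regulators divided into more than 1 kind. Of the 12 genes of the channel and its regulators 11 were higher, 6 at an unadjusted p under 0.05, and in 6 the groups did not overlap, while none was lower on either count, and the median was 0.33. Nedd4l, a ubiquitin ligase that removes the channel from the membrane, was higher too, at 102.3, 91.8, 78.6 and 89.2 CPM against 65.2, 73.3, 65.6 and 78.5 CPM (0.36 ± 0.10). Usp2, a deubiquitinase that acts in the other direction, was at 161.6 ± 13.8 CPM against 126.5 ± 6.70 CPM (0.35 ± 0.12). So an inhibitor and activators of the channel were higher side by side. Leaving out each library in turn kept the number of genes at an unadjusted p under 0.05 between 6 and 7 and the median between 0.23 and 0.38.

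The enzymes that interconvert active and inactive glucocorticoid stood in opposite directions. Hsd11b2 inactivates glucocorticoid in aldosterone target cells and so protects the mineralocorticoid receptor. It read 296.5, 169.3, 193.5 and 261.9 CPM at 2 wk and 167.3, 164.9, 146.1 and 134.9 CPM in sedentary mice (0.59 ± 0.15, adjusted p = 0.357). Hsd11b1 regenerates active glucocorticoid (chromosome 1, 193221634 to 193264075, minus strand) and read 96.3, 123.8, 169.1 and 136.9 CPM at 2 wk against 191.6, 202.5, 273.6 and 232.5 CPM (-0.77 ± 0.16, adjusted p = 0.185 by edgeR and 0.0048 by DESeq2). Neither gene's groups overlapped, although runner library 2 came close to the sedentary libraries for Hsd11b2. The ratio of Hsd11b2 CPM to Hsd11b1 CPM, which was examined after the values were seen, was 1.14 to 3.08 in runners and 0.534 to 0.873 in sedentary libraries. Since both genes were apart in opposite directions, their ratio had to be apart too and is no further result. The 13 genes of the glucocorticoid response list had a median of 0.13, with 3 higher and none lower at an unadjusted p under 0.05. That count was 1 without 2 wk library 1, and the median was 0.05 without 2 wk library 4 and 0.06 without sedentary library 1. Fkbp5, a glucocorticoid-induced chaperone, was at 147.8 and 103.0 CPM in runner libraries 1 and 2 but at 69.6 and 70.9 CPM in 3 and 4, against 61.3 to 72.6 CPM in sedentary libraries.

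Principal cell markers other than the channel were less even between libraries. Of 12 markers 10 were higher and 6 of them at an unadjusted p under 0.05, none lower, with a median of 0.32, and 3 of the 12 (Hsd11b2, Scnn1b and Scnn1g) also belong to the channel list. The mean log2 level of the list against the sedentary mean was 0.35, -0.13, 0.26 and 0.50 in runner libraries 1 to 4, so that library 2 did not share the difference. Gata3, a transcription factor of the collecting duct (0.45 ± 0.15), Avpr2, the vasopressin receptor (0.46 ± 0.18), and Kcne1 (0.51 ± 0.18), a potassium channel subunit, were higher with overlapping groups. Aqp2, the water channel that vasopressin moves to the membrane, was at 181.3, 130.3, 205.3 and 308.7 CPM in runners against 199.7, 184.3, 192.3 and 150.8 CPM (0.18 ± 0.21, adjusted p = 0.856). The urea transporter Slc14a1 belongs to the list of water channels and osmolytes and not to the principal cell markers. It was lower (-0.78 ± 0.27), at 0.727 and 0.919 CPM in runner libraries 1 and 2 and 2.28 and 1.66 CPM in 3 and 4, against 1.95 to 2.62 CPM. Runner libraries 1 and 2 are the lowest in medulla and urothelium genes, and the part of this in Slc14a1 was not tested.

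**Figure D2:**
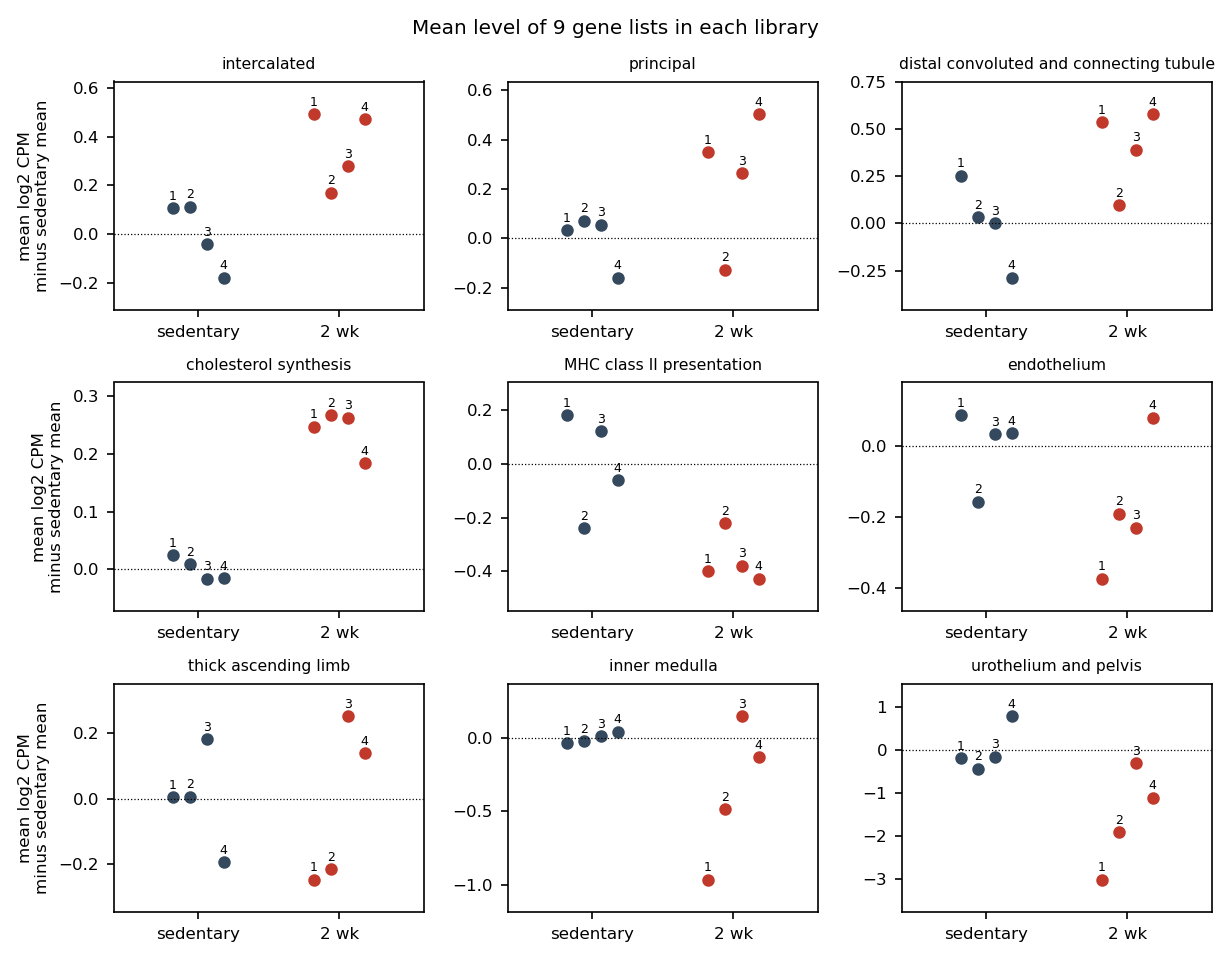
Mean log2 CPM of 9 gene lists in each library minus the sedentary mean (y axes, log2 units, with a scale of its own in each panel), for sedentary (dark) and runner (2 wk, red) libraries numbered by replicate. The groups are apart for intercalated cells and cholesterol synthesis, runner library 2 lies low for principal cells at -0.13, and runner libraries 1 and 2 are lowest for inner medulla and urothelium.

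Genes of the distal convoluted and connecting tubule were displaced about as far as those of intercalated cells. Of 12 markers 11 were higher, 8 at an unadjusted p under 0.05 and none lower. The median was 0.40 against 0.39 for intercalated cells. Unlike there, the summed levels overlapped, at 3905 to 6560 CPM at 2 wk and 2967 to 4635 CPM in sedentary libraries. The list's mean against the sedentary mean was 0.10 in runner library 2 and 0.25 in sedentary library 1. Slc8a1, the sodium and calcium exchanger that returns calcium to blood (chromosome 17, 81373105 to 81738377, minus strand), read 123.4, 83.8, 85.6 and 116.3 CPM at 2 wk and 73.2, 52.6, 53.0 and 45.3 CPM in sedentary mice. No library of the 2 groups overlapped (0.87 ± 0.18, adjusted p = 0.229 by edgeR and 0.00591 by DESeq2). Trpv5, the channel by which calcium enters these cells from the urine, was likewise apart, at 17.3, 11.5, 13.4 and 15.8 CPM against 10.2, 8.54, 9.22 and 6.12 CPM (0.76 ± 0.19, adjusted p = 0.344). Calb1, the protein that ferries calcium across the cell, was at 522.7, 252.0, 414.2 and 453.5 CPM against 338.8, 311.9, 248.2 and 203.1 CPM, and runner library 2 lay among the sedentary ones (0.58 ± 0.21). Entry, transfer and exit of calcium thus had a higher mean at each step, with the exit gene the clearest. Klk1, tissue kallikrein, was at 2799 ± 743 CPM against 2077 ± 416 CPM (0.43 ± 0.18). The count of 8 was 5 without 2 wk library 1, 5 without 2 wk library 4 and 4 without sedentary library 4, and 9 without 2 wk libraries 1 and 2 together.

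Slc12a3, the thiazide-sensitive sodium chloride cotransporter, read 510.8, 571.7, 537.0 and 643.5 CPM at 2 wk and 490.2, 391.7, 410.2 and 324.3 CPM in sedentary mice. The groups did not overlap, though sedentary library 1 came close to the runners (0.49 ± 0.14, adjusted p = 0.36). Its upstream kinases Wnk1 (0.39 ± 0.14) and Wnk4 (0.34 ± 0.13) were higher, and so was Klhl3 (0.45 ± 0.13), the adaptor through which WNK kinases are degraded. Kcnj10, the basolateral potassium channel whose activity reaches the WNK kinases, was higher as well (0.41 ± 0.12). Of the 12 genes of this pathway 6 were higher at an unadjusted p under 0.05. None was lower, and the median was 0.22. The summed levels overlapped, at 2540 to 3082 CPM at 2 wk and 2391 to 2667 CPM in sedentary libraries. The list shares 4 genes with the distal convoluted and connecting tubule list.

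Segments upstream showed no such displacement by edgeR with all libraries. The median of 12 thick ascending limb markers was 0.01 and that of 15 proximal tubule markers 0.04, with no marker of either at an unadjusted p under 0.05. By voom 5 proximal markers and 1 thick limb marker were lower at that level and none higher, with medians of -0.02 and 0.03. Slc12a1, the loop diuretic-sensitive cotransporter, was at 182.7, 350.0, 459.8 and 389.7 CPM in runners against 397.2 to 492.9 CPM (-0.31 ± 0.21, adjusted p = 0.76), with runner library 1 lowest. Umod, uromodulin, was at 2583 ± 616 CPM against 2626 ± 230 CPM. Slc9a3, the main proximal sodium and proton exchanger, was at 85.9 ± 8.82 CPM against 85.9 ± 4.85 CPM, and Aqp1, the proximal water channel, at 1417 ± 208 CPM against 1396 ± 173 CPM. Without 2 wk libraries 1 and 2 the thick limb median was 0.22 and the proximal median -0.13, so these medians moved with the choice of libraries. In that fit 2 thick limb markers were higher and 2 proximal markers lower at an unadjusted p under 0.05. The 12 podocyte markers had a median of 0.03 with all libraries, and of -0.0894 to 0.125 with single libraries left out. Without 2 wk libraries 1 and 2 their median was -0.20 and 0 of the 12 were higher. Nphs1, nephrin of the filtration slit, was at 16.6 ± 3.80 CPM against 15.9 ± 2.46 CPM.

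**Figure D3:**
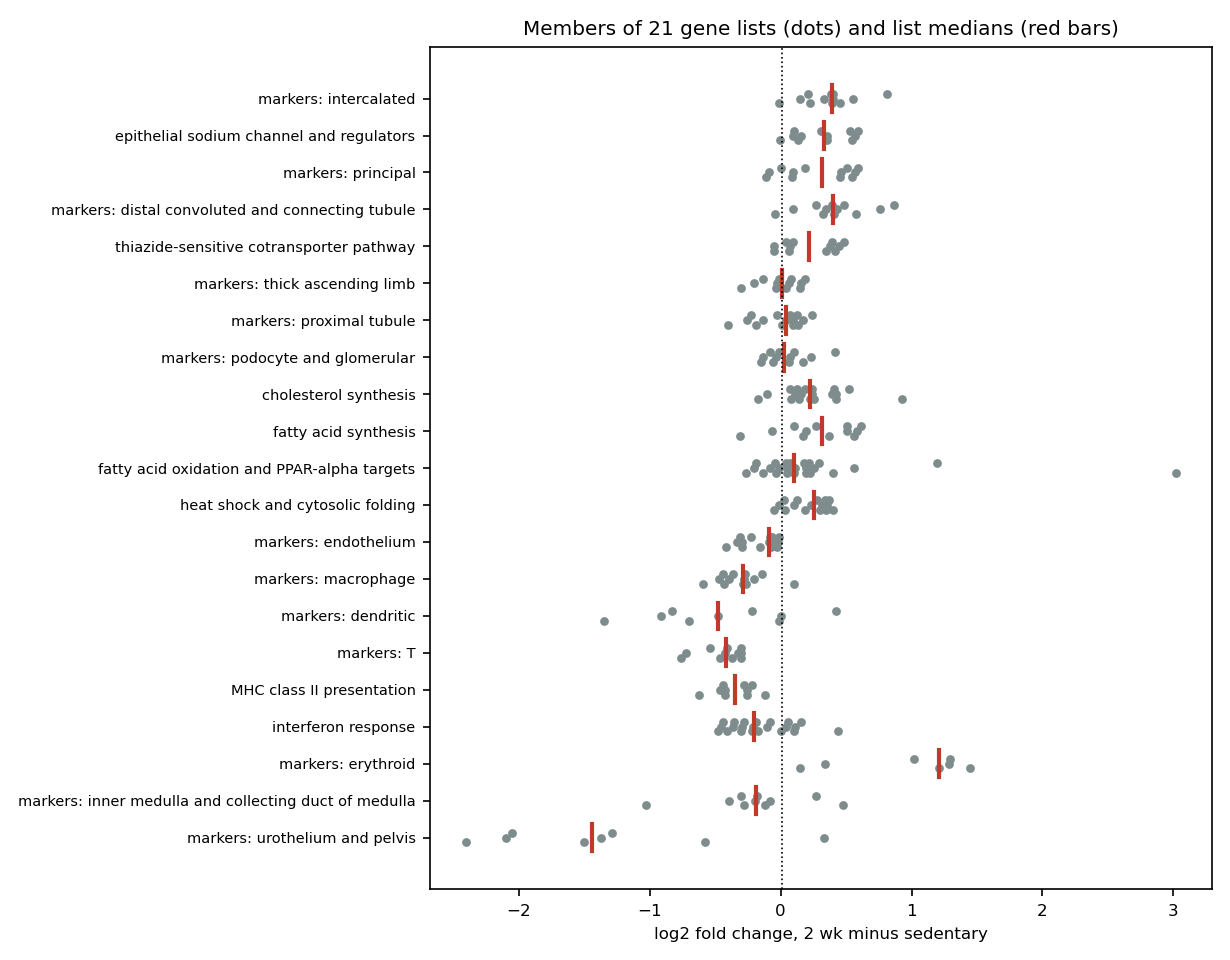
Log2 fold change between 2 wk and sedentary libraries (x axis) of each tested member (grey dots) of 21 gene lists (rows), with the list median as a red bar and the median of all 16126 genes as a dotted line. The distal nephron and lipid synthesis lists have medians of 0.22 to 0.40, the erythroid list 1.21, and the 5 immune lists plotted (macrophage, dendritic, T cell, MHC class II and interferon response) between -0.20 and -0.48.

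Genes of lipid synthesis were higher in runners. Cholesterol is made by a chain of enzymes, and fatty acids by another, and the SREBP transcription factors drive both with the help of NF-Y, which binds the letters CCAAT. Scd2, a fatty acid desaturase (chromosome 19, 44293674 to 44306864, plus strand), read 94.8, 97.2, 86.2 and 110.9 CPM at 2 wk and 65.9, 66.0, 64.0 and 58.3 CPM in sedentary mice. The lowest runner library lay well above the highest sedentary one (0.61 ± 0.10, adjusted p = 0.0591 by edgeR and 8.98e-05 by DESeq2).

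Of the 19 cholesterol synthesis and uptake genes 17 were higher. In 8 the unadjusted p was under 0.05, in 8 the groups did not overlap in that direction, and none was lower on either count. The median was 0.22, between 0.16 and 0.26 when single libraries were left out. The list's mean against the sedentary mean was 0.25, 0.27, 0.26 and 0.18 in runner libraries 1 to 4, where fat markers stood at 2.06, -0.92, -0.29 and 0.55. The summed level was 1988 to 2139 CPM at 2 wk and 1762 to 1868 CPM in sedentary libraries. The enzymes Lss (0.39 ± 0.10), Fdft1 (0.40 ± 0.14), Sqle (0.24 ± 0.10), Fdps (0.42 ± 0.18) and Mvd (0.24 ± 0.09) and the SREBP retention protein Insig1 (0.43 ± 0.14) were among those at an unadjusted p under 0.05, and of these 6 Mvd had overlapping groups. Lss, which closes the ring of lanosterol, read 30.9, 33.2, 31.1 and 30.6 CPM at 2 wk against 24.6, 27.2, 20.7 and 23.6 CPM (adjusted p = 0.357). Its lowest runner library lay above every sedentary one.

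Of 12 fatty acid synthesis genes 10 were higher, 5 at an unadjusted p under 0.05 and none lower, with a median of 0.32, and 3 at that level without 2 wk libraries 1 and 2. The list's mean against the sedentary mean was 0.42, 0.12, 0.01 and 0.46 in runner libraries 1 to 4, and was thus highest in libraries 1 and 4, in which the fat markers were also highest (2.06 and 0.55). The part of fat tissue in this list was not tested. Srebf1, the factor of this branch, read 81.7, 103.6, 80.3 and 81.9 CPM against 66.2, 57.0, 56.7 and 64.0 CPM (0.51 ± 0.13, adjusted p = 0.357). Its groups were apart, with runner library 2 highest. Acacb (0.51 ± 0.14), an acetyl-CoA carboxylase whose product restrains fatty acid entry into mitochondria, was apart as well. Fasn, the synthase, was at 125.9, 122.7, 69.3 and 118.8 CPM against 81.5, 75.8, 55.9 and 77.7 CPM, and Acaca at 21.9, 21.1, 12.4 and 19.7 CPM against 11.6 to 15.7 CPM. Runner library 3 lay among the sedentary libraries for both. Without 2 wk library 3 the adjusted p of Fasn was 0.0367, with a log2 fold change of 0.75.

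The CCAAT letters were searched in the promoters of these genes on both strands in the same 300-base windows. All 12 cholesterol genes with a RefSeq entry held them. So did 8 of 10 fatty acid synthesis genes with an entry, against 41.1% of all symbols. Shares were high in some other lists too, such as endoplasmic reticulum stress (92.3%), MHC class I (90.9%) and cell cycle (87.5%). The letters TCACNCCAC, with N any base, were also searched. They were in 1 of the 12 cholesterol genes and 0 of the 10 fatty acid synthesis genes, against 1.44% of all symbols. The CCAAT letters do not mark the direction of a difference. All 7 MHC class II genes with an entry, which are lower in runners as described further on, held them too. A few of the stretches are shown, for members that were higher at an unadjusted p under 0.05, with CCAAT or its reverse complement ATTGG in capitals. They lie upstream of the start, at chr10:76531523-76531567 (Lss, plus strand), chr5:28071176-28071220 (Insig1, plus strand), chr8:122443458-122443502 (Mvd, minus strand), chr11:60222723-60222767 (Srebf1, minus strand) and chr11:120824582-120824626 (Fasn, minus strand), with the match 59 to 216 bases before it. In Fasn a match on each strand shares bases.
Lss: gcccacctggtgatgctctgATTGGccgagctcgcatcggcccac
Insig1: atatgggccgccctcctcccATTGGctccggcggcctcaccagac
Mvd: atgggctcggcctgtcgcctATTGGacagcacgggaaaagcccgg
Srebf1: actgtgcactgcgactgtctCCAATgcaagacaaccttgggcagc
Fasn: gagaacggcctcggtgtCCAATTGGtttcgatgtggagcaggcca

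Fatty acid breakdown differed less as a whole, with single genes far apart. The 25 genes of fatty acid oxidation and PPAR-alpha targets had a median of 0.11, with 5 higher and none lower at an unadjusted p under 0.05, and medians of 0.06 without 2 wk library 1 or without 2 wk library 4. The count of 5 was 3 without sedentary library 1 or sedentary library 2. The list's mean was likewise highest in runner libraries 1 and 4 (0.33 in each, against 0.05 and 0.20 in 2 and 3), with the fat markers, whose part was not tested. Cyp4a14, a fatty acid hydroxylase and PPAR-alpha target, stood at 360.6, 33.5, 183.5 and 329.0 CPM in runners against 22.0, 22.4, 39.3 and 27.7 CPM. Runner library 2 lay within the sedentary range, and the 3 other runner libraries were several-fold above it (log2 fold change 3.02 ± 0.81, adjusted p = 0.374 by edgeR and 0.0118 by DESeq2). Cyp4a10, its neighbour in the gene cluster, was at 522 ± 101 CPM against 354 ± 44.2 CPM, with library 2 again within the sedentary range at 373.6 CPM. Hadha, a subunit of the mitochondrial oxidation complex, differed by a smaller amount but evenly, at 247.2 to 292.5 CPM against 213.7 to 241.6 CPM (0.23 ± 0.08). Acnat2, an acyltransferase acting on fatty acyl-CoA (chromosome 4, 49379840 to 49408151, minus strand), read 79.3, 78.8, 94.8 and 88.7 CPM against 45.6, 45.1, 42.1 and 52.8 CPM (0.88 ± 0.16, adjusted p = 0.141 by edgeR, 0.00111 by DESeq2 and 0.022 by voom).

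Of the enzymes that make glucose, an early one had a higher mean and the last a lower one. Pck1, the early enzyme, was at 2856, 1317, 1793 and 1979 CPM at 2 wk against 1213 to 1533 CPM (0.56 ± 0.18, adjusted p = 0.429), with runner library 2 inside the sedentary range. Its highest value was in library 1, where fat markers were highest, and their part in it was not tested. G6pc, which releases free glucose, was at 254.7, 467.8, 437.2 and 428.6 CPM against 543.6 to 712.2 CPM, with no overlap (-0.62 ± 0.17, adjusted p = 0.357). The ratio of Pck1 CPM to G6pc CPM, also examined after the values were seen, was 2.82 to 11.2 in runners and 1.70 to 2.49 in sedentary libraries. Since both genes had been seen to differ in opposite directions, and G6pc was already apart, their ratio is no further result. Slc38a3, the glutamine carrier that feeds ammonia production, was at 95.3 ± 25.1 CPM against 62.6 ± 12.1 CPM (0.60 ± 0.27). The whole list of 12 had 3 genes higher and 1 lower at an unadjusted p under 0.05, and none higher without 2 wk library 1 and 1 without sedentary library 3.

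Endothelial genes had slightly lower levels in runners. All 15 markers had a negative log2 fold change, 2 of them (Emcn and Kdr) at an unadjusted p under 0.05, and the median was -0.09. Without 2 wk library 4 the median was -0.22 and 5 were lower at that level, and the list's mean against the sedentary mean was -0.37, -0.19, -0.23 and 0.08 in runner libraries 1 to 4. The count of 2 was 1 without 2 wk library 1 or sedentary library 1, 3 or 4, and 0 without 2 wk libraries 1 and 2 together, when 7 of the 15 were higher and the median was -0.06. By voom 6 of the 15 were higher. Emcn, endomucin of the capillary surface, read 33.8, 38.7, 43.7 and 45.0 CPM at 2 wk against 54.4, 47.8, 58.9 and 54.8 CPM, with no overlap (-0.42 ± 0.14, adjusted p = 0.432). Kdr, the main VEGF receptor, was at 29.8 ± 5.75 CPM against 37.6 ± 3.62 CPM. Vegfa, its ligand, was at 104 ± 13.5 CPM against 101 ± 4.15 CPM (0.05 ± 0.10), and Nos3, the endothelial nitric oxide synthase, at 4.98 ± 0.73 CPM against 5.06 ± 0.81 CPM.

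Some further genes were among the 10 lower genes of smallest p. Aplnr, the apelin receptor (chromosome 2, 85136225 to 85139923, plus strand), read 1.62, 2.91, 2.01 and 2.43 CPM in runners against 5.09, 3.38, 4.60 and 3.97 CPM (-0.92 ± 0.20, adjusted p = 0.232 by edgeR and 0.00863 by DESeq2). Gpihbp1, which carries lipoprotein lipase to the capillary lumen, read 5.89, 6.57, 8.01 and 6.17 CPM against 12.01, 9.19, 11.1 and 9.96 CPM (-0.67 ± 0.15, adjusted p = 0.239). Neither gene's groups overlapped, nor did those of the butyrophilin-like gene Btnl9 (-0.62 ± 0.14). Hcar1, the lactate receptor, was at 1.33 to 1.5 CPM at 2 wk and 2.44 to 3.16 CPM in sedentary mice, with a spread of only 0.0749 CPM (SD) among runners (-0.94 ± 0.22, adjusted p = 0.273).

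The medians of all 7 immune cell lists were negative, from -0.29 for macrophages to -0.81 for plasma cells. Only 1 of the 11 plasma cell markers tested was lower at an unadjusted p under 0.05, and none higher. The summed level of that list overlapped, at 125.3 to 222.7 CPM at 2 wk and 164.8 to 201.6 CPM in sedentary libraries. The clearest single gene was Cd209a, a lectin of dendritic cells (chromosome 8, 3743397 to 3748984, minus strand), at 0.460, 0.800, 0.465 and 0.896 CPM at 2 wk against 1.499, 1.40, 1.71 and 2.18 CPM. All 4 runner libraries lay below all sedentary ones (-1.35 ± 0.26, adjusted p = 0.141 by edgeR and 0.000823 by DESeq2). Itgax, the integrin CD11c (-0.83 ± 0.23), Mgl2, another lectin of antigen-presenting cells (-0.58 ± 0.14), Ccr2, the monocyte chemokine receptor (-0.83 ± 0.24), and Nckap1l, an actin regulator of blood cells (-0.63 ± 0.16), were also below without overlap. Dendritic markers had a median of -0.48 with 3 of 9 lower at an unadjusted p under 0.05, and monocyte and neutrophil markers a median of -0.57 with 3 of 9. No marker of these 2 lists was higher at that level, and the monocyte and neutrophil count was 1 without 2 wk library 3.

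Macrophage markers were lower in 12 of 13 with a median of -0.29, 3 at an unadjusted p under 0.05, and 4 had groups that did not overlap. Of the complement subunits these cells make, C1qb read 14.1, 15.1, 15.8 and 15.7 CPM against 23.3, 16.8, 24.3 and 19.7 CPM (-0.47 ± 0.18, adjusted p = 0.579), and C1qc was at 10.9 ± 1.14 CPM against 14.4 ± 1.33 CPM. Ctss, a lysosomal protease of these cells, was at 6.49 to 7.89 CPM against 8.79 to 12.8 CPM. Adgre1, the F4/80 antigen, averaged 2.53 ± 0.45 CPM in runners and 3.07 ± 0.42 CPM in sedentary mice (-0.29 ± 0.26, adjusted p = 0.822). Cd68, a lysosomal protein, averaged 2.48 ± 0.26 CPM and 2.99 ± 0.31 CPM, with overlap in both genes. The count of 3 was 1 without 2 wk library 3, 5 without sedentary library 2, and 0 without sedentary library 1, sedentary library 3 or 2 wk libraries 1 and 2 together.

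MHC class II genes, which present antigen to helper T cells, were lower in all 10 with a median of -0.35, 3 at an unadjusted p under 0.05 and 4 without overlap. H2-Ab1 read 106.9, 117.8, 108.1 and 104.9 CPM at 2 wk against 164.1, 125.4, 153.2 and 143.8 CPM (-0.42 ± 0.14, adjusted p = 0.429), and H2-Aa and H2-Eb1 were lower by similar amounts (-0.46 ± 0.17 and -0.44 ± 0.17). Sedentary library 2 lay nearest to the runners for all 3. Summed over the list, the level was 451.4 to 549.5 CPM at 2 wk and 580.9 to 766.4 CPM in sedentary mice. Interferon response genes had a median of -0.20 with 4 of 22 lower at an unadjusted p under 0.05 (2 without 2 wk library 1, 2 wk library 2, sedentary library 1 or sedentary library 4, and 1 without 2 wk libraries 1 and 2), and Irf7 was at 8.43 ± 0.18 CPM against 11.4 ± 1.11 CPM.

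Lymphocyte transcripts were scarce. All 11 T cell markers tested had a negative log2 fold change, none at an unadjusted p under 0.05, with a median of -0.41, and their sum was 4.87 to 6.25 CPM at 2 wk against 7.04 to 8.41 CPM. Cd3e, of the T cell receptor complex, was at 0.350 ± 0.085 CPM against 0.471 ± 0.039 CPM (-0.41 ± 0.32). Of 6 markers of natural killer and cytotoxic cells 3 were lower at an unadjusted p under 0.05 (1 without 2 wk libraries 1 and 2; median -0.76, and -0.50 without 2 wk library 1 and -0.51 without sedentary library 1). Among them, the granzyme Gzma was at 0.0845 to 0.218 CPM against 0.245 to 0.401 CPM and the granule protein Nkg7 at 0.291 to 0.385 CPM against 0.423 to 0.853 CPM. B cell markers did not share a direction. Of 9 tested, 7 were lower and 2 higher, with 1 on each side at an unadjusted p under 0.05. Cr2, the complement receptor that B cells and follicular dendritic cells carry, was higher at 1.08 ± 0.20 CPM against 0.658 ± 0.18 CPM (0.70 ± 0.28). The list median was -0.58, and -0.34 without 2 wk library 1, -0.30 without sedentary library 3 and 0.04 without 2 wk libraries 1 and 2. In those fits none was lower at that level. Igha, the IgA heavy chain of plasma cells, was at 2.24 ± 0.56 CPM against 3.97 ± 1.06 CPM (-0.82 ± 0.33).

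Red cell transcripts were higher in runners. Alas2, which starts heme synthesis in erythroid cells (chromosome X, 150547375 to 150570638, plus strand), read 20.2, 16.1, 14.3 and 32.7 CPM at 2 wk against 7.65, 9.94, 6.75 and 6.25 CPM (1.44 ± 0.29, adjusted p = 0.21 by edgeR and 0.0168 by DESeq2). Hba-a1, alpha globin, read 181.0, 140.3, 131.3 and 313.9 CPM against 70.8, 110.5, 77.7 and 54.9 CPM (1.29 ± 0.33, adjusted p = 0.357), and Hbb-bs, beta globin, 369.5 to 931.8 CPM against 209.5 to 348.3 CPM. No groups overlapped for these 3 genes, and runner library 4 was the highest for each. All 7 erythroid genes tested were higher, 5 at an unadjusted p under 0.05 and 5 without overlap. The median was 1.21, and 0.88 without 2 wk library 4. Slc4a1, 1 of the 7, is also on the intercalated cell list. Globin copies are near identical, so their reads could be split between genes. Whether the frozen pieces had been flushed of blood is not stated, and more blood in the tissue and more globin RNA per red cell cannot be told apart.

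Systems of pressure control were mixed. Renin, Ren1, was at 129.3, 56.7, 61.3 and 101.4 CPM in runners against 59.5 to 100.4 CPM (0.22 ± 0.30, adjusted p = 0.889). The angiotensin receptor Agtr1a was at 35.5 ± 5.16 CPM against 40.7 ± 4.00 CPM and the converting enzyme Ace at 380 ± 42.0 CPM against 400.2 ± 25.4 CPM, with overlap. Mas1, the receptor of angiotensin 1-7, was lower (-0.66 ± 0.26). Of the nitric oxide synthases, Nos1, which the macula densa expresses, was at 1.33, 0.963, 0.465 and 1.39 CPM against 0.401 to 0.601 CPM (0.99 ± 0.36), whereas Nos2 was at 0.460 to 0.597 CPM against 0.712 to 0.970 CPM without overlap (-0.75 ± 0.21, adjusted p = 0.357). Corin, the protease that activates atrial natriuretic peptide, was at 0.170, 0.652, 2.28 and 1.20 CPM in runners against 2.06 to 4.29 CPM (-1.48 ± 0.42, adjusted p = 0.374), with the lowest values in the libraries lowest in medulla genes. The part of the medulla in it was not tested. Ptges, a prostaglandin E synthase, was at 27.0 ± 6.27 CPM against 19.0 ± 1.81 CPM (0.51 ± 0.13).

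Genes of stress, injury and mitochondria differed in size from gene to gene. Of 16 heat shock and folding genes 14 were higher with a median of 0.26 but none at an unadjusted p under 0.05, and the median was 0.09 without 2 wk library 1. Hsp90ab1 was at 2333, 1458, 1756 and 1407 CPM in runners against 1304 to 1486 CPM, and Hyou1, a chaperone of the endoplasmic reticulum, at 225.4, 166.4, 211.2 and 133.5 CPM against 122.7 to 143.6 CPM. Hspa1a, the inducible HSP70, was at 6.71 ± 0.92 CPM against 5.18 ± 1.04 CPM. Among injury genes, Clu, clusterin, was at 713.0, 302.9, 468.9 and 527.6 CPM against 327.4, 278.9, 270.3 and 189.1 CPM, with runner library 2 inside the sedentary range (0.92 ± 0.20, adjusted p = 0.232 by edgeR and 0.00863 by DESeq2). The tubular injury markers Havcr1, KIM-1, at 3.63 ± 1.71 CPM against 3.44 ± 1.61 CPM, and Lcn2, NGAL, at 1.80 ± 0.69 CPM against 1.99 ± 0.42 CPM, overlapped widely.

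Ppargc1a, the coactivator that training induces in muscle, was at 30.1 ± 6.69 CPM against 29.2 ± 3.03 CPM, and Hif1a at 37.9 ± 4.88 CPM against 37.2 ± 1.30 CPM. The related coactivator Pprc1 was higher, at 15.1, 14.1, 9.06 and 11.7 CPM against 8.995, 7.32, 8.33 and 8.47 CPM, with runner library 3 just above the highest sedentary library (0.59 ± 0.14, adjusted p = 0.291 by edgeR and 0.0292 by DESeq2). Ucp2, an uncoupling protein, was at 159 ± 59.5 CPM against 97.9 ± 9.53 CPM (0.70 ± 0.21), with overlap. The median over the 25 nuclear respiratory chain genes was -0.01 and that of the 7 mitochondrial genes tested -0.08, and mt-Nd5 was at 2204 ± 284 CPM against 2601 ± 458 CPM. The glutathione synthesis gene Gclc was at 399.3, 390.1, 571.1 and 224.5 CPM against 203.9 to 305.2 CPM (0.66 ± 0.21), so that library 4 did not share the difference.

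Clock genes, which read the hour of sampling, gave Nr1d1 at 58.5 ± 12.9 CPM against 54.3 ± 15.3 CPM and Arntl at 4.76 ± 0.81 CPM against 3.91 ± 0.87 CPM. Per1 was at 37.8 CPM in runner library 4 and at 14.5 to 16.6 CPM in the other 3, against 12.4 to 16.1 CPM. The organic anion carriers Slco1a1 (-0.80 ± 0.29) and Slco1a6 (-0.36 ± 0.10), the first of which depends on androgen in the mouse kidney, were lower without overlap. Slco1a1 read 135.7, 158.4, 163.5 and 64.4 CPM in runners against 195.7, 212.6, 299.4 and 204.2 CPM.

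Further genes without a common theme completed those of smallest p. Ints6, a subunit of the Integrator complex that processes nascent RNA, read 12.9, 14.98, 12.7 and 12.3 CPM at 2 wk against 8.19, 8.16, 9.78 and 8.13 CPM (0.63 ± 0.11, adjusted p = 0.0591 by edgeR and 5.95e-05 by DESeq2). Phactr1, a regulator of actin and protein phosphatase 1, read 14.9, 10.6, 9.51 and 14.3 CPM against 8.11, 7.05, 6.62 and 5.87 CPM (0.83 ± 0.16, adjusted p = 0.141). Il17re, a subunit of the receptor for IL-17C, was higher (0.55 ± 0.12), while Lipo3, a lipase family member (-0.67 ± 0.16), and Hist1h1c, a linker histone (-0.39 ± 0.10), were lower, all 3 without overlap.

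The 1 wk and 24 h groups share their sedentary controls with the 2 wk group, so their values are set side by side without a count of agreement. Foxi1 was at 24.1 ± 4.51 CPM at 24 h, 23.7 ± 1.77 CPM at 1 wk and 33.8 ± 6.73 CPM at 2 wk, against 19.2 ± 1.46 CPM in sedentary mice. Slc8a1 was at 55.2 ± 12.95, 68.4 ± 13.3 and 102.3 ± 20.5 CPM in that order, against 56.03 ± 12.01 CPM. Cd209a was at 1.62 ± 0.29, 0.795 ± 0.23 and 0.655 ± 0.23 CPM against 1.70 ± 0.34 CPM, and Aplnr at 3.83 ± 0.73, 2.52 ± 0.54 and 2.24 ± 0.55 CPM against 4.26 ± 0.74 CPM. Tested directly, no gene passed between 2 wk and 1 wk by edgeR (0%), where 738 genes had an unadjusted p under 0.05, DESeq2 called 4 and voom 1. Foxi1 was 0.51 ± 0.13 higher on the log2 scale at 2 wk than at 1 wk (adjusted p = 0.868), and Cd209a differed by -0.26 ± 0.27.

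**Figure D4:**
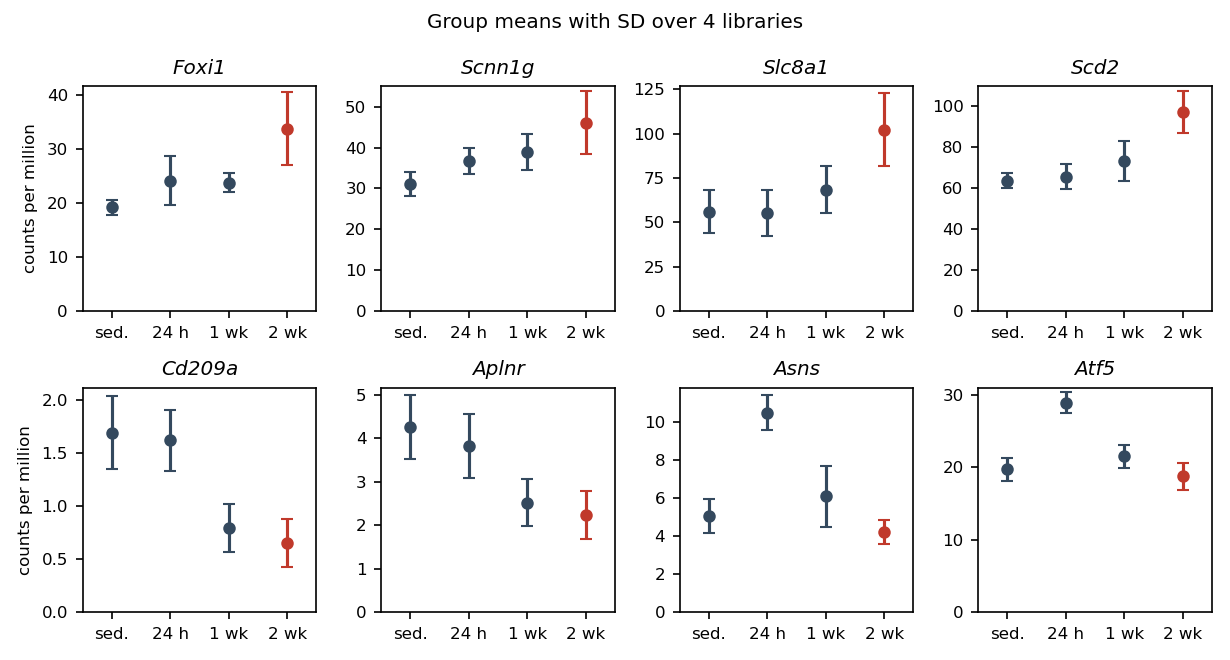
Mean CPM with SD over 4 libraries (y axes, from 0) of 8 genes in sedentary mice and after 24 h, 1 wk and 2 wk of running (2 wk in red). Asns and Atf5 are highest at 24 h, at 10.5 and 28.9 CPM, and the mean of Slc8a1 is highest at 2 wk, at 102.3 CPM.

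Between 2 wk and 24 h, 2 genes (0.0124%) passed by edgeR, both lower at 2 wk. Asns, asparagine synthetase, a target of the integrated stress response, was at 4.23 ± 0.63 CPM at 2 wk and 10.5 ± 0.93 CPM at 24 h, a log2 fold change of -1.31 ± 0.17 (adjusted p = 0.00616). Atf5, a transcription factor of the same response, was at 18.7 ± 1.82 CPM against 28.9 ± 1.40 CPM (-0.63 ± 0.09, adjusted p = 0.0121). In sedentary mice the 2 genes were at 5.06 ± 0.91 and 19.7 ± 1.58 CPM, and their difference between 2 wk and sedentary cortex did not pass (adjusted p = 0.741 and 0.871). The number passing was 7 without 24 h library 2, 1 without 24 h library 1, 24 h library 4 or 2 wk library 4, 3 without 2 wk library 1, 6 without 2 wk library 3, and 0 without 2 wk library 2.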

How the data were processed

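Kidney cortex RNA from 16 libraries was measured, and the 2 wk and sedentary groups follow the titles and treatment labels. The table the authors deposited holds raw counts per gene, not normalized, from TruSeq stranded mRNA libraries, per the labels' protocols. HTSeq 0.10.0 and FastQC 0.10.1 were used, per the submitters' processing notes, on GRCm38. The sources used here name no aligner, annotation release or strand setting, so near-identical copies and antisense partners are uncertain. Names came from GENCODE M21 (94% of IDs matched). Of the table's columns, 8 matched no sample's labels and stayed out.

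Genes were tested in R 4.3.3 with edgeR 4.0.16 (filterByExpr, TMM, robust quasi-likelihood F-test, Benjamini-Hochberg, threshold 0.05), with all 16 libraries in 1 fit. DESeq2 1.42.0, voom with quality weights (limma 3.58.1), other scalings and filters, a replicate block and leaving out libraries were alternatives. Log2 levels used a prior count of 2, and values after ± are SD for CPM and SE for log2 fold changes. Libraries of a group differed beyond sampling noise (chi-square per degree of freedom 7.88 to 100.1). The scripts were tested on simulated counts.

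Comparisons, the 54 gene lists and the naming rule were chosen with earlier results of these data known. The rule named the 10 genes of smallest p higher and the 10 lower (mean log2 CPM of at least 0), the 2 of smallest p in each list, a set named always, and genes called against 1 wk or 24 h. The text gives those from the lists it describes. Members beyond the rule (29) were picked after their values were seen. Some genes of these lists are not reported here.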

Additional observations from a re-analysis of the deposited data

Results flagged for a closer look

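In 9 of the group-wise checks over 117 genes and 2 groups, 1 library stood far from the other 3 of its group, and chance alone gives such a gap in about 1 of 20 groups. Among runners these were Per1 at 37.8 CPM (next library 16.6), Srebf1 at 103.6 CPM (next 81.9), Cfd at 13.9 CPM (next 0.704) and, on the low side, Fasn at 69.3 CPM (next 118.8). Among sedentary libraries they were Ints6 at 9.78 CPM (next 8.19), Slc9a3 at 93.1 CPM (next 84.2), Slco1a1 at 299.4 CPM (next 212.6), Hyou1 at 143.6 CPM (next 125.3) and, on the low side, Acaca at 11.6 CPM (next 15.4). Asns and Atf5 differed between durations of running by edgeR's quasi-likelihood test with Benjamini-Hochberg adjustment, by -1.31 and -0.63 on the log2 scale at 2 wk against 24 h.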

How the results depend on the processing

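Between 2 wk and sedentary cortex edgeR called 0 genes, and 5 without a low-count filter, 2 with only the groups compared in the fit and 5 with a replicate block, while DESeq2 called 34 and voom 6. Leaving out single libraries gave 0 to 8 calls (2 without 2 wk library 2, 8 without 2 wk library 3). Against 1 wk DESeq2 called 4 and voom 1, and single libraries left out gave 0 to 0. Against 24 h the 2 calls were 8 without a filter, 4 at 1 CPM or more in 4 libraries, 39 by DESeq2 and 11 with the replicate block, with 0 to 7 when single libraries were left out. Runner and sedentary libraries of the same number correlated at 0.145, 0.0471, 0.375 and 0.0548, and those of different numbers at -0.279 to 0.173. Not every library correlated best with its own number. Whether a shared number marks a common origin was not tested.

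Of 117 genes named, 103 kept their sign under every alternative run, and 24 passed by DESeq2 and 6 by voom. Signs turned for genes near 0 and for Cfd, whose log2 fold change was 3.26 with all libraries. Cfd was at 13.9 CPM in 2 wk library 1, and the next runner library was at 0.704 CPM. By voom Nos3 was 0.0899, Slc9a3 -0.055, Umod 0.0264, Nphs1 -0.0303 and Hif1a -0.0261. Slc9a3 was -0.00863 at 1 CPM or more and -0.00205 with only the groups compared. Without 2 wk libraries 1 and 2, an alternative chosen after seeing the data, Nos3 was 0.0642, Slc9a3 -0.0527, Umod 0.248, Nphs1 -0.188, Lcn2 0.239 and Hif1a -0.0563. The cause was not tested. With single libraries left out, the values of genes whose sign turned ran as follows: Ren1 -0.0304 to 0.394, Nos3 -0.133 to 0.04, Slc9a3 -0.0651 to 0.0504, Aqp1 -0.0342 to 0.112, Aqp2 -0.0771 to 0.35, Umod -0.144 to 0.0814, Nphs1 -0.102 to 0.173, Havcr1 -0.203 to 0.422, Lcn2 -0.358 to 0.066, Ppargc1a -0.0337 to 0.189, Hif1a -0.0635 to 0.0825, Vegfa -0.0359 to 0.102, Nr1d1 -0.0217 to 0.303 and Cfd -0.476 to 3.67. Genes under about 1 CPM, such as Gzma and Cd3e, rest on few counts.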
